A study of Homo sapiens with 4 samples.

Results

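The genes described here are 35 genes of the lysosome and of autophagy, taken from the 60658 Ensembl gene identifiers in each deposited table by matching the identifiers to gene symbols. They comprised 2 transcription factors, 11 lysosomal enzymes, 2 soluble lysosomal proteins that are not enzymes, 5 proteins of the lysosomal membrane, 5 genes of the lysosomal proton pump and 10 autophagy factors. All 35 were matched, and all 35 were among the 14803 genes with a mean of at least 1 FPKM (fragments scaled by transcript length and by the depth of the library) over the libraries. The study asked what the transmembrane protein gene TMEM161A does in colorectal cancer, and its sequencing compared cells given an siRNA against TMEM161A (si2 in the labels) with cells given a negative control siRNA (NC). An siRNA is a short double-stranded RNA that leads to cleavage of the mRNA it pairs with. HT29 and LIM1215, both established human colorectal cancer lines, each gave 1 NC library and 1 si2 library of polyadenylated RNA, 4 libraries in all. The labels name no other genotype, dose or time, and no second siRNA against TMEM161A was analysed here.

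The lysosome is a membrane-bound organelle, kept acid by a proton pump, in which hydrolases break down proteins, glycans and lipids. Macroautophagy delivers cytoplasm to it: a double membrane forms around the cargo, is decorated with lipid-bound proteins of the LC3 and GABARAP family, and fuses with the lysosome. TFEB and TFE3, which mTORC1 keeps in the cytoplasm when nutrients are plentiful, bind E-box sequences in the promoters of many of these genes and raise their transcription.

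With 1 library per line and siRNA there was no replicate within a line, and nothing in the labels describes separate cultures. Ratios within a line therefore carry only a 95% exact (Clopper-Pearson) counting interval, which covers counting error and not the variation between cultures. By estimate, 1 FPKM was worth 18.1 to 21.5 fragments for each kilobase of transcript, and each of the 35 genes had at least an estimated 95.6 fragments in each library. TMEM161A itself was at 42.6 FPKM in the HT29 control and 4.64 in HT29 si2, and at 39.1 and 7.61 FPKM in LIM1215. Of 10 markers of leukocytes, fibroblasts and endothelium, 9 were under 3 FPKM in every library, and PTPRC and CD3E were listed at 0. The exception was COL1A1, at 4.83 to 17.6 FPKM. The epithelial markers EPCAM, KRT8 and KRT18 were above 150 FPKM in all libraries, whereas the enterocyte genes VIL1, LGALS4 and KRT20 were under 1 FPKM in both HT29 libraries and above 60 in both LIM1215 libraries.

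Promoter windows, from 250 bases before to 50 bases after a transcription start, were available for 27 of the 35 genes in a RefSeq table on GRCh38.p14. The genes with no entry are CTSB, HEXA, PSAP, LAMP2, ATP6V1A, ATP6V1B2, ATP6V1H and UVRAG. Each window was searched for CACGTG, the E-box core, and for TCACGTGA, an 8-base form that contains it. Both read the same on either strand. CACGTG was found in 7.26% of all 35116 windows in the table and TCACGTGA in 0.980%. Of the 27 genes, 5 (18.5%) had TCACGTGA in a window, 3 (11.1%) had CACGTG only and 19 had neither. A gene can have several windows, so shares by gene and by window are not alike. By gene, 2.24% of the 10507 compared genes with an entry had TCACGTGA and 10.3% had CACGTG only, 12.5% together. Such a match is a description of the letters and not a binding site. The stretches around the matches are shown because the responses are compared by this feature further on. They read 5′ to 3′ on the gene's own strand. Capitals mark each CACGTG and, where present, the first copy of the longer form in the window. Any later copy is marked at its core only, and positions given are of the first match to the longest form present.
GAA: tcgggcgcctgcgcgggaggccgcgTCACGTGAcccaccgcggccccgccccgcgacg
MCOLN1: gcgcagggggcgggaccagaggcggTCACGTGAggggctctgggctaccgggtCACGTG
LAMP1: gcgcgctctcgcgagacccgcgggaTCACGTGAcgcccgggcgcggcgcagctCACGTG
CTSA: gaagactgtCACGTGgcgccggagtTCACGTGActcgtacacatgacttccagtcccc
ATP6V0D1: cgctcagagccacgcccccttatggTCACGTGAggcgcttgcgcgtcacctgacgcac
NEU1: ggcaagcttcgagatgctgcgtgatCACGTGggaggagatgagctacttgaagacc
CTSD: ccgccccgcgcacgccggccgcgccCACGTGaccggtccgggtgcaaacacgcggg
CD63: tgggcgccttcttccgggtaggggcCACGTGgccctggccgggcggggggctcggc
The stretch of GAA lies at chr17:80101479-80101536 on the plus strand, with the match starting at position −77 from the RefSeq start, and that of MCOLN1 at chr19:7522557-7522615, plus strand, with the match at −42. LAMP1 (chr13:113297185-113297243, plus strand) had its 8-base match at −29 and 6 copies of CACGTG in the whole window. The stretch of CTSA lies at chr20:45891284-45891341 on the plus strand, with the 8-base match at −26. ATP6V0D1 (chr16:67481185-67481242, minus strand) had its match at −60. NEU1 (chr6:31862917-31862972, minus strand) and CTSD (chr11:1763944-1763999, minus strand) had theirs at −126 and −47. The match of CD63 (chr12:55729159-55729214, minus strand) was at −180 and in 1 of the gene's 8 windows.

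Most lysosome and autophagy genes differed little between si2 and control libraries, and small positive ratios were more frequent than negative ones. In HT29, 22 of 35 genes (62.9%) were higher in si2 at any size, where 53.9% of all genes compared were. In LIM1215, 26 of 35 (74.3%) were higher, against 53.1% of all genes. The 9 colonic epithelium markers were also all higher in LIM1215 si2, from 0.04 (CDH1) to 0.63 (CDX2) on the log2 scale, their summed level being 8079 FPKM in the control and 9975 in si2. In HT29, 4 of the 9 were higher, with sums of 3140 and 3588 FPKM. COL1A1 was at 0.71 in LIM1215 and −0.13 in HT29, and the summed leukocyte markers stayed between 0.541 and 2.27 FPKM. The part of these differences in the members' ratios was not tested. The median log2 ratio of FPKM plus 1 was 0.11 in HT29 and 0.17 in LIM1215, beside 0.04 and 0.02 over all genes. Of the 35, 18 (51.4%) were higher in both lines, as were 36.0% of all genes. A further 5 were lower in both lines and 12 went opposite ways. Of the 14803 genes compared, 4145 were lower in both and 5000 went opposite ways. In bulk RNA, fewer cells with a transcript and less of it per cell cannot be told apart. The plot of ratios by gene shows the counting interval of each.

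No member reached a 2-fold difference in either direction in HT29, where 3.80% of all genes did, or in LIM1215, where 3.46% did. At 1.5-fold, 0 members were higher in HT29 against a background of 7.87%, and 2 were lower, LAMP2 and WIPI1, against 6.91%. Rescaling the libraries to a common sum of FPKM turned this background into 6.69% higher and 9.27% lower, and upper quartile scaling into 6.52% and 8.63%. In LIM1215, 0 members were higher (background 6.63%) and 0 were lower (background 6.18%). WIPI1 was the member nearest inside the 1.5-fold threshold, a log2 ratio of 0.58, and GABARAPL1 the nearest outside, at 151% of control before the pseudocount. Counting intervals lay wholly above 100% of control in both lines for 12 of the 35 genes, against 19.5% of the 14440 genes with an interval. They lay wholly below in both lines for SQSTM1 and WIPI1 (15.2% of all genes) and on opposite sides for CTSB, GLB1 and GUSB (10.4%). The members were also more deeply counted, with a median of 1710 estimated fragments in the HT29 control against 773 over all genes, which narrows their intervals. These counts cover counting error only, and the part of depth in them was not tested. They are given on the deposited scale, so they carry no error of scaling between libraries.

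TFEB, a master regulator of lysosome genes, was the least abundant member in 3 libraries, and UVRAG, at 5.21 FPKM, was lower in the LIM1215 control. TFEB (ENSG00000112561, chromosome 6, 41683978 to 41736259, minus strand, GRCh38) was at 2.16 FPKM in the HT29 control, 2.08 in HT29 si2, 5.45 in the LIM1215 control and 4.18 in LIM1215 si2. Both LIM1215 libraries were above both HT29 libraries. Its si2 level was 96.5% of control in HT29 (interval 72.1% to 129%) and 76.8% in LIM1215 (62.8% to 94.4%), so the HT29 difference was not detectable at this depth. TFE3 (ENSG00000068323, chromosome X, 49028726 to 49043410, minus strand), the close relative that binds the same elements, was at 15.5 FPKM in the HT29 control, 19.0 in HT29 si2, 18.0 in the LIM1215 control and 18.4 in LIM1215 si2. The HT29 control was the lowest of these and the other 3 libraries were close together. Its log2 ratios were 0.27 (HT29) and 0.03 (LIM1215).

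**Figure D1:**
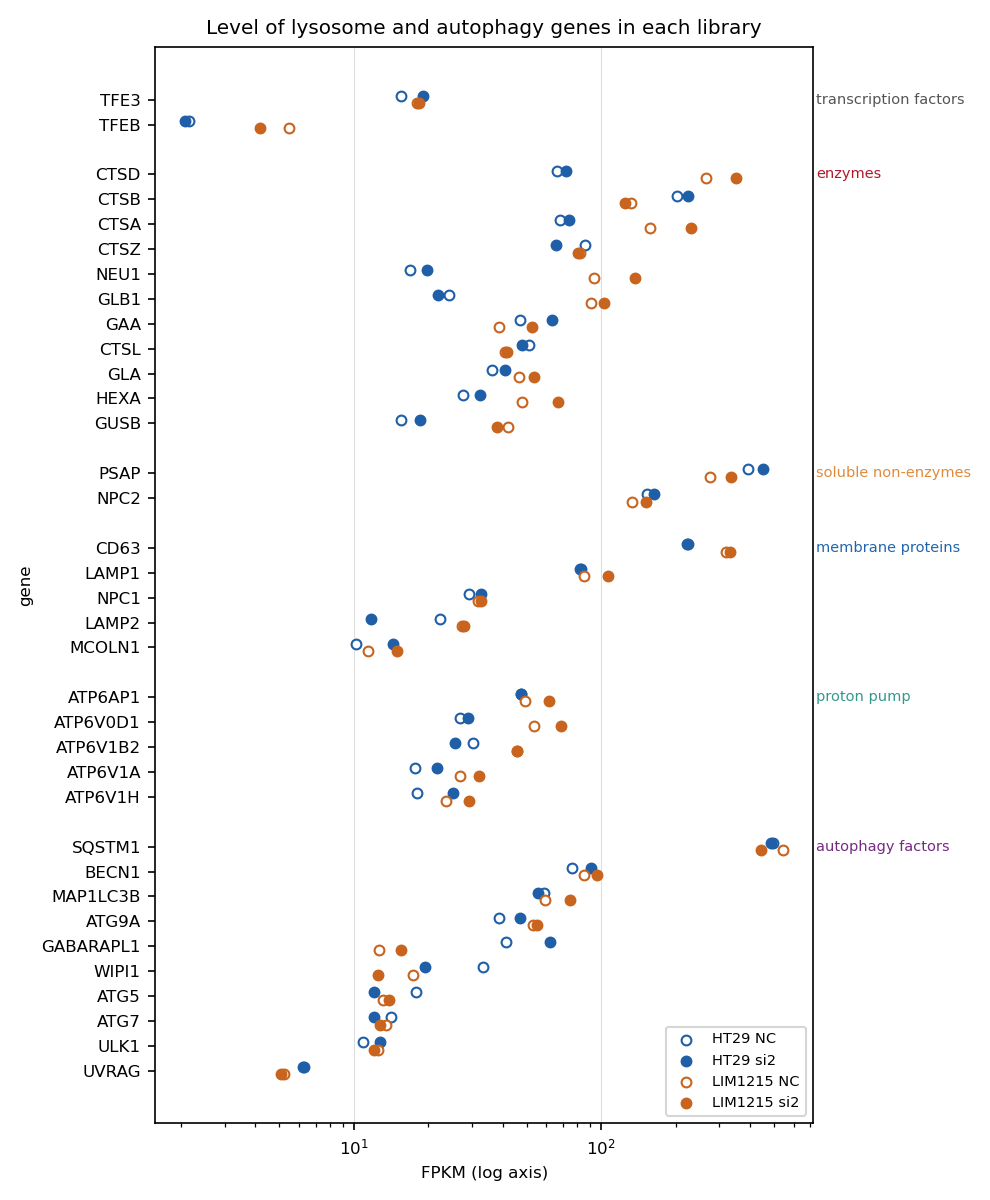
FPKM (x axis, log axis) of each of the 35 genes (y axis, ordered by role) in the 4 libraries; open circles are NC and filled circles si2, HT29 in blue and LIM1215 in orange. The members span from about 2 FPKM (TFEB in HT29) to over 500 FPKM (SQSTM1), and NEU1, CTSD and GLB1 are farther apart between lines than between siRNAs.

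Among the enzymes, small positive ratios prevailed. Of 11 enzymes, 8 (72.7%) were higher in si2 in HT29 and 8 in LIM1215, where 53.9% and 53.1% of all genes were. The LIM1215 count was 7 after centring and 9 with upper quartile scaling. The medians were 0.15 and 0.20, with ranges of −0.39 to 0.41 and −0.14 to 0.55. GAA, NEU1, HEXA, CTSA, CTSD and GLA were above control beyond counting error in both lines, a call that many genes met, as given above. This call holds for the deposited scale and carries no scaling error. After rescaling to a common sum the HT29 ratios were 0.03 for CTSA and CTSD, 0.14 for HEXA and 0.33 for GAA. GAA (ENSG00000171298, chromosome 17, 80101533 to 80119881, plus strand, 20 exons), the acid alpha-glucosidase that breaks down glycogen, was at 47.1 FPKM in the HT29 control and 63.0 in HT29 si2. In LIM1215 it was at 38.6 in the control and 52.6 in si2. Each si2 library was above both controls. Its log2 ratios were 0.41 and 0.44, or 134% of control (128% to 140%) in HT29 and 136% (130% to 143%) in LIM1215.

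NEU1, the lysosomal sialidase, and CTSA, the protective protein that holds NEU1 in a complex, had the highest enzyme ratios in LIM1215. NEU1 was at 16.9 FPKM in the HT29 control, 19.8 in HT29 si2, 93.3 in the LIM1215 control and 137 in LIM1215 si2, with log2 ratios of 0.22 and 0.55. CTSA was at 68.2, 73.9, 157 and 231 FPKM in the same libraries, with ratios of 0.11 and 0.55. Both were well above the HT29 level in either LIM1215 library. GLB1, the beta-galactosidase of the same complex, went opposite ways, at −0.15 in HT29 and 0.17 in LIM1215.

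HEXA, the alpha subunit of beta-hexosaminidase A, was at 27.7 and 32.3 FPKM in the HT29 control and si2 libraries and at 47.8 and 66.7 in LIM1215 (log2 ratios 0.22 and 0.47). CTSD, the main aspartic protease of the lysosome, was at 66.4 and 71.9 FPKM in HT29 and at 266 and 350 in LIM1215 (0.11 and 0.40). GLA, the alpha-galactosidase lacking in Fabry disease, had ratios of 0.16 and 0.20. All 3 were above control in each line. A readthrough gene on the same strand covers 62.1% of CTSD, at a mean of 1.65 FPKM.

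The cysteine cathepsins, proteases of the papain family, had ratios of either sign. CTSZ (ENSG00000101160, chromosome 20, 58985686 to 59008238, minus strand), a carboxypeptidase, had the lowest mean ratio of the enzymes. It was at 86.3 FPKM in the HT29 control, 65.7 in HT29 si2, 81.8 in the LIM1215 control and 80.5 in LIM1215 si2. The HT29 si2 library stood below the other 3, at 76.1% of control (71.6% to 80.9%), while LIM1215 si2 was at 98.3% (92.4% to 105%). CTSL had ratios of −0.09 and 0.02 and CTSB 0.15 and −0.08. GUSB, the beta-glucuronidase, was 0.23 in HT29 and −0.14 in LIM1215; it has many pseudogene copies, so its fragments may be shared.

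PSAP and NPC2, soluble proteins that present lipids to enzymes and transporters, were higher in si2 in both lines. PSAP (ENSG00000197746, chromosome 10, 71816298 to 71851251, minus strand), the precursor of the saposins, was at 392 FPKM in the HT29 control, 452 in HT29 si2, 275 in the LIM1215 control and 334 in LIM1215 si2. It was more abundant in HT29 than in LIM1215 under either siRNA, and its ratios were 0.20 and 0.28. NPC2 (ENSG00000119655, chromosome 14, 74476192 to 74494177, minus strand), which carries cholesterol, was at 154 and 163 FPKM in HT29 and at 133 and 151 in LIM1215. Its 4 values lay close together, with ratios of 0.09 and 0.19, and its HT29 counting interval (99.9% to 113% of control) included 100%.

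The membrane proteins held the gene with the largest difference of all 35. LAMP2 (ENSG00000005893, chromosome X, 120426148 to 120469365, minus strand), an abundant lysosomal membrane glycoprotein that also takes part in chaperone-mediated autophagy, was at 22.2 FPKM in the HT29 control and 11.7 in HT29 si2. In LIM1215 it was at 27.4 in the control and 28.0 in si2. One library, HT29 si2, was low and the other 3 were alike. LAMP2 in si2 was 52.8% of control in HT29 (49.7% to 56.1%) and 102% in LIM1215 (97.2% to 107%), log2 ratios of −0.87 and 0.03. The tables give gene totals, and its splice forms were not analysed here.

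MCOLN1 (ENSG00000090674, chromosome 19, 7522624 to 7534009, plus strand), the calcium channel TRPML1, was the highest of the membrane group by mean ratio. It was at 10.2 FPKM in the HT29 control, 14.3 in HT29 si2, 11.4 in the LIM1215 control and 14.9 in LIM1215 si2. Both si2 libraries were above both controls, at 141% of control (124% to 160%) in HT29 and 131% (114% to 149%) in LIM1215. LAMP1, the other major membrane glycoprotein, was at 82.8 and 82.3 FPKM in HT29 and at 85.3 and 107 in LIM1215, so LIM1215 si2 stood above the other 3 libraries. CD63, a tetraspanin, had ratios of 0.01 and 0.06, and NPC1, the cholesterol exporter, 0.15 and 0.05. The group median was 0.01 in HT29 and 0.06 in LIM1215, and the HT29 median turned to −0.07 after rescaling to a common sum, −0.06 with upper quartile scaling and −0.02 after centring.

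The proton pump moves protons into the lysosome with energy from ATP. Its 5 genes had medians of 0.11 in HT29, with 3 of 5 higher, and 0.30 in LIM1215, with 5 of 5 higher. Over all genes 53.9% and 53.1% were higher. Of the 5, ATP6V1B2 was below 0 in LIM1215 after centring or rescaling to a common sum. ATP6V1H (ENSG00000047249), a regulatory subunit of the ATP-splitting part, had the highest mean ratio. It was at 18.1 FPKM in the HT29 control, 25.2 in HT29 si2, 23.5 in the LIM1215 control and 29.2 in LIM1215 si2, with each si2 library above both controls. It was at 139% of control (127% to 153%) in HT29 and 124% (114% to 136%) in LIM1215. ATP6V1B2 (ENSG00000147416), a nucleotide-binding subunit, had the lowest. It was at 30.3, 25.5, 45.7 and 45.8 FPKM in the same order, lower in HT29 si2 and level in LIM1215. ATP6V1A, the catalytic subunit, had ratios of 0.28 and 0.25. ATP6V0D1, of the membrane sector, was at 0.11 and 0.36, and the accessory subunit ATP6AP1 at −0.01 and 0.31.

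The autophagy factors were divided. Of 10, 5 were higher and 5 lower in each line, where 53.9% of all genes were higher in HT29 and 53.1% in LIM1215. The medians were −0.01 in HT29 and 0.01 in LIM1215, the latter −0.01 after centring. WIPI1 (ENSG00000070540, chromosome 17, 68420948 to 68457513, minus strand), which binds the phosphoinositide of the forming autophagosome, was at 33.2 FPKM in the HT29 control, 19.3 in HT29 si2, 17.3 in the LIM1215 control and 12.5 in LIM1215 si2. HT29 was the higher line under either siRNA, and si2 was below control in both. WIPI1 in si2 was 58.3% of control in HT29 (53.1% to 64.0%) and 72.2% in LIM1215 (63.5% to 82.2%), log2 ratios of −0.75 and −0.44. Exons of ARSG on the other strand cover 28.3% of its canonical transcript, at a mean of 5.30 FPKM. The libraries were stranded, but whether the counting used strand is not given in the sources used here.

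GABARAPL1 (ENSG00000139112, chromosome 12, 10212458 to 10223128, plus strand), which is attached to the autophagosome membrane, differed the other way. It was at 41.3 FPKM in the HT29 control, 62.4 in HT29 si2, 12.6 in the LIM1215 control and 15.5 in LIM1215 si2. HT29 levels were above LIM1215 levels throughout, and si2 was above control in both lines, at 151% (141% to 162%) and 123% (108% to 141%). Its relative MAP1LC3B was at −0.08 in HT29 and 0.33 in LIM1215; MAP1LC3B has a near copy, MAP1LC3B2, and its fragments may be shared.

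SQSTM1, the cargo receptor p62, was the most abundant autophagy factor, at 494 and 484 FPKM in HT29 and 543 and 444 in LIM1215. Its ratio was −0.03 in HT29 and −0.29 in LIM1215, and exons of MRNIP (mean 20.0 FPKM) on the other strand cover 55.7% of its canonical transcript. ATG5, part of the enzyme complex that conjugates LC3, was at 17.8 and 12.1 FPKM in HT29 and 13.1 and 13.9 in LIM1215 (−0.53 and 0.09). BECN1, of the kinase complex that starts the membrane, had ratios of 0.26 and 0.18, and the scramblase ATG9A 0.28 and 0.05. ATG7, the activating enzyme of conjugation, was at −0.21 and −0.08, the initiating kinase ULK1 at 0.21 and −0.05, and UVRAG, a BECN1 partner, at 0.01 and −0.03. On the other strand, exons of VGLL4 cover 29.9% of ATG7, at a mean of 31.4 FPKM, which is above ATG7 itself. Exons of CNTD1 cover 37.7% of BECN1 on the other strand, at a mean of 0.601 FPKM. A readthrough gene covers 48.6% of ATG9A on its own strand.

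Set against each other, the enzymes had the higher median in both lines. The enzyme median exceeded that of the autophagy factors by 0.16 in HT29 and by 0.20 in LIM1215. The SD over genes was 0.22 for the enzymes and 0.40 for the autophagy factors in HT29, and 0.26 and 0.24 in LIM1215, and the ranges of the groups overlapped. In each line 8 of 11 enzymes lay above the autophagy median. Conversely, 4 of 10 autophagy factors lay above the enzyme median in HT29, and 2 of 10 did in LIM1215. Genes are not replicates, and no test was made of this difference.

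The second line is the only repeat of the siRNA comparison, and limma was fitted to all 4 libraries with the cell line as a block. This leaves 1 residual degree of freedom, with the spread shared over genes. Of the 35 genes, 0 passed an adjusted p of 0.05 (Benjamini-Hochberg over 14803 genes), where 1.95% of all genes did. At an unadjusted p under 0.05 there were 9 of 35 (25.7%), against 19.5% of all genes. These were GAA, GABARAPL1, NEU1, ATP6V1H, MCOLN1, HEXA, CTSA and PSAP, higher with si2, and WIPI1, lower. The smallest adjusted p was that of WIPI1, 0.0963 with a mean log2 ratio of −0.59, then GAA, 0.117 with 0.42, and GABARAPL1, 0.164 with 0.43, each with its sign in both lines. For LAMP2 the mean was −0.42 (95% limits −0.93 to 0.09) with an adjusted p of 0.338. Across the alternatives limma's adjusted p ranged from 0.0165 to 0.9999 for WIPI1 and from 0.0358 to 0.9999 for GAA. The upper ends came with no replicate block, a setting that called 0 genes.

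**Figure D2:**
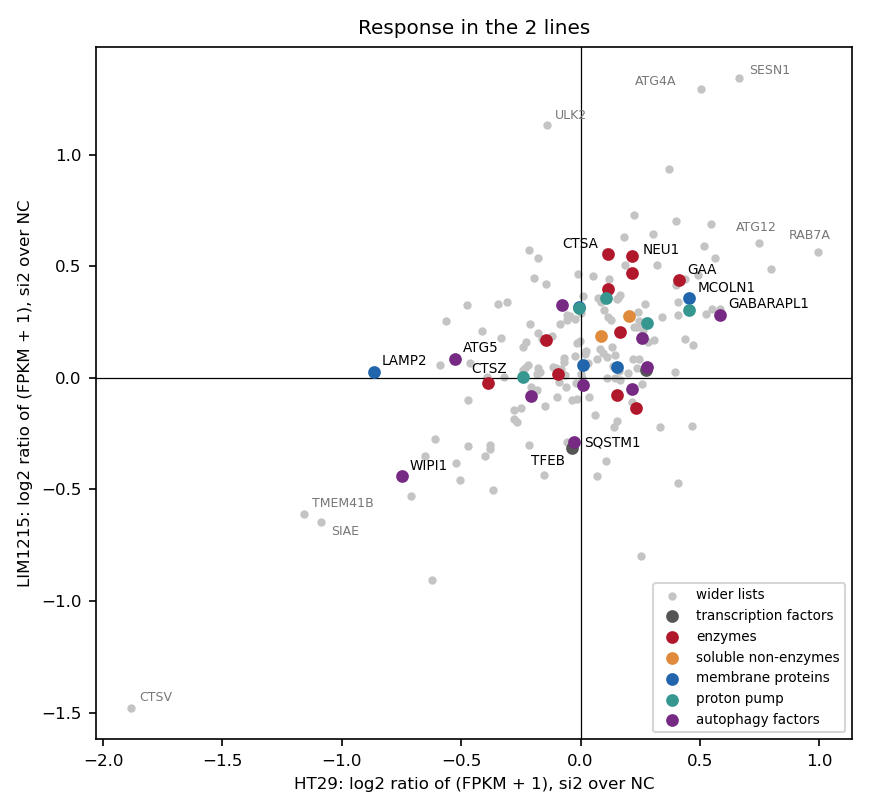
Log2 ratio of FPKM plus 1, si2 over NC, in HT29 (x axis) against LIM1215 (y axis); coloured points are the 35 genes by role and grey points the wider lists of lysosome and autophagy genes. LAMP2 lies far to the left at a LIM1215 ratio near 0, WIPI1 is low on both axes, and CTSV is at the lower left corner.

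Across the 35 genes the ratios in the lines correlated with a Pearson r of 0.480, beside 0.266 over all genes compared. These are descriptions across genes, which share their libraries and their depth.

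The members were then compared by the promoter matches shown above. All 8 members with a CACGTG match were higher in LIM1215 si2, from 0.06 (CD63) to 0.55 (CTSA), with a median of 0.38. Of the wider genes with a match 20 of 26 (76.9%) were higher there, and of all genes with a match 55.3%. The 19 with no match had a median of 0.05, and 12 of them were higher. Of the wider genes with no match 68.0% were higher there, and of all genes with no match 52.3%. In HT29 the medians were 0.11 with a match, where 7 of 8 were higher, and −0.01 without, where 9 of 19 were. With a match, 46.2% of the wider genes and 58.4% of all genes were higher in HT29. Without a match, 52.6% and 53.3% were. The 5 with the 8-base form ranged from −0.01 (LAMP1) to 0.46 (MCOLN1) in HT29 and from 0.32 to 0.55 in LIM1215. Of those 8 genes, 5 are enzymes or pump genes, 3 are membrane proteins and 0 are autophagy factors, so role and match overlap.

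Among 123 further lysosome and autophagy genes with a promoter entry, the 26 with a CACGTG match had medians of −0.01 in HT29 and 0.08 in LIM1215, and the 97 with no match had 0.02 and 0.10. By form, the 13 with TCACGTGA had medians of 0.13 and 0.04, with 8 and 9 higher, and the 13 with CACGTG only had −0.01 and 0.09, with 4 and 11 higher. Over 10507 compared genes with an entry, the 1314 with a match had medians of 0.07 and 0.03, and those with no match 0.03 and 0.02. The 235 with TCACGTGA (2.24%) had 0.06 and 0.07, and 57.9% and 59.6% of them were higher. Of the 1079 with CACGTG only, 58.6% and 54.3% were higher. No match says only that these letters are not in the window.

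**Figure D3:**
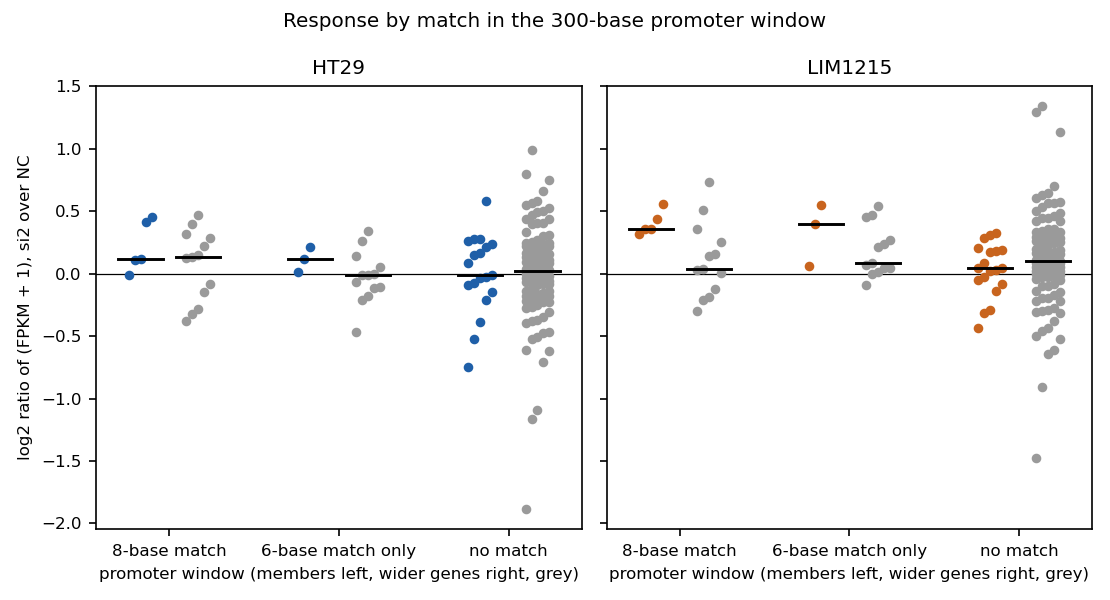
Log2 ratio of FPKM plus 1, si2 over NC (y axis), in HT29 (left) and LIM1215 (right), by match in the 300-base promoter window (x axis): TCACGTGA, CACGTG only, or none. Coloured points are the 27 genes with an entry, grey points the wider genes and bars medians; coloured points with a match in LIM1215 are all above 0, while each grey group straddles it.

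For these genes the control libraries of the lines differed more than si2 and control did. Of the 35 genes, 24 were higher in the LIM1215 than in the HT29 control, but 17 were after rescaling to a common sum or upper quartile scaling, which moved the median of all genes from 0.05 to −0.11 and −0.10. At 2-fold, 6 members were higher in LIM1215, where 12.0% of all genes were, and 1 was lower, where 7.42% were; rescaling to a common sum turned these backgrounds into 10.3% and 10.2%, and upper quartile scaling into 10.1% and 9.78%. The 6 were NEU1 (log2 2.40), CTSD (1.98), GLB1 (1.87), GUSB (1.37), CTSA (1.19) and TFEB (1.03), 5 of them enzymes. TFEB was no longer among them, leaving 5, after centring, either rescaling, a pseudocount of 5 or a filter at a mean of 5 FPKM. The 1 lower was GABARAPL1 (−1.64), followed by WIPI1 (−0.90). These lines also differ in the enterocyte markers given above, and the part of that difference in these levels was not tested.

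Around the 35 genes, 155 further genes of the lysosome, autophagy and mTORC1 signalling were compared, in 8 lists. Their medians were 0.01 in HT29, with 79 of 155 (51.0%) higher, and 0.10 in LIM1215, with 109 (70.3%) higher. Over all genes 53.9% and 53.1% were higher. In limma 3 of the 155 (1.94%) passed an adjusted p of 0.05, a share near the 1.95% of all genes, so the count says nothing about these lists. CTSV, cathepsin V, a cysteine protease close to CTSL, fell in both lines, from 10.2 to 2.04 FPKM in HT29 and from 4.44 to 0.953 in LIM1215 (mean log2 ratio −1.68, adjusted p 0.0279). RAB7A, the small GTPase of late endosomes and lysosomes, rose from 82.5 to 165 FPKM in HT29 and from 116 to 172 in LIM1215 (0.78, adjusted p 0.0405). ATG12, which is joined to ATG5 in the conjugation complex, rose from 69.5 to 117 FPKM in HT29 and from 25.3 to 39.0 in LIM1215 (0.67, adjusted p 0.0442). The adjusted p in limma ranged over the alternatives from 5.06e-05 to 0.9999 for CTSV, 0.000283 to 0.9999 for RAB7A and 0.00142 to 0.9999 for ATG12. Each upper end came with no replicate block, where limma called 0 genes.

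By list, the counts of higher genes below stand beside 53.9% of all genes in HT29 and 53.1% in LIM1215. The other hydrolases had medians of −0.02 and 0.16 in HT29 and LIM1215, with 16 and 26 of 35 higher and CTSV the 1 that passed. SIAE, a sialic acid esterase, was at 42.8% of control in HT29 and 63.2% in LIM1215 (limma adjusted p 0.0501). Exons of TBRG1 on the other strand cover 51.7% of SIAE, at a mean of 21.6 FPKM. The other membrane proteins had medians of −0.03 and 0.09, with 10 and 16 of 20 higher. The 2 with the largest ratio shared by both lines were the sialic acid exporter SLC17A5, at 62.7% and 51.5% of control, and OSTM1, the partner of a lysosomal chloride exchanger, at 59.0% and 67.1%.

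The other pump subunits had medians of −0.08 and 0.19, with 5 and 10 of 14 higher. ATP6V0A1 and ATP6V0A2, alternative forms of 1 subunit, differed in direction, at 0.23 in both lines and at −0.52 and −0.38. The delivery genes had medians of 0.11 and 0.06, with 14 and 12 of 19 higher. RAB7A was the 1 that passed, and GNPTG, of the mannose phosphate tagging enzyme, was at 0.32 and 0.51. Exons of UNKL on the other strand cover 46.0% of GNPTG, at a mean of 17.1 FPKM.

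Initiation and nucleation genes of autophagy had medians of 0.04 and 0.07, with 8 and 12 of 16 higher. TMEM41B, a lipid scramblase, was at 42.9% and 64.3% of control (limma adjusted p 0.0548), and AMBRA1, a BECN1 regulator, had a log2 ratio of 0.44 in each line. ULK2, the relative of ULK1, was at 88.2% in HT29 and 257% in LIM1215. Conjugation genes had medians of −0.02 and 0.26, with 5 and 8 of 12 higher, ATG12 the 1 that passed, and the protease ATG4A at 148% and 276%.

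Receptor and fusion genes had medians of 0.12 and 0.02, with 9 and 8 of 15 higher. PLEKHM1, an adaptor for fusion, was at 135% and 166% of control, and the fusion protein STX17 at 60.9% and 76.8%. The TFEB control and mTORC1 genes had medians of 0.01 and 0.10, with 12 and 17 of 24 higher. SESN1, a leucine sensor that restrains mTORC1, was at 169% and 287%, and RPTOR, the scaffold of mTORC1, at 150% and 149%. In 5 of the 8 lists 0 genes passed limma's adjusted p of 0.05, and at an unadjusted p there were 35 of the 155 genes (22.6%), against 19.5% of all genes compared.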

How the data were processed

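Libraries were grouped by cell line and siRNA from their titles. The values are FPKM as deposited by the authors, 1 table per library. The submitters' processing notes name HISAT2 2.1.0, SAMtools 1.20, Cufflinks 2.2.1, Cuffdiff and GRCh38; their roles, the annotation and filters are not given in the sources used here. Symbols and positions came from GENCODE release 44 by identifier (56550 of 60658 matched). The 35 genes, the wider lists and the rule for named genes were chosen with earlier results of these data known. That rule describes in full the transcription factors, members past 1.5-fold and the highest and lowest mean ratio of each role group. It names wider genes past 2-fold in a line, and up to 2 per list with the largest ratio shared by both lines. Ratios are log2 of FPKM plus 1 over genes with a mean of at least 1 FPKM, a scale that understates differences of low genes. Percent of control uses FPKM without a pseudocount. Fragments were estimated from the steps of low values, of which 76.9% to 79.0% lay within 0.03 of a whole number. limma 3.58.1 (R 4.3.3, lmFit, eBayes with trend) took the cell line as block, since si2 and control of a line are the same cells, with Benjamini-Hochberg adjustment. The code was run on data simulated from the spread that limma itself had fitted. That check therefore cannot vouch for the fit to these libraries. With the block, the p-values of limma set the mean ratio against the difference between the ratios of the lines. That difference gives 1 residual degree of freedom and is shrunk to a spread shared over genes (6.06 prior degrees of freedom). They do not measure the variation between cultures of a line. Alternatives changed the pseudocount (0.1 or 5), filter, scaling, group mean, block, trend and gene set.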

Additional observations from a re-analysis of the deposited data

Results flagged for a closer look

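Of the 35 genes, 12 had ratios of opposite sign in the lines. So did 5000 of the 14803 genes compared, a similar share, so the count says nothing about these genes. With 1 library per line and siRNA the difference between lines was not tested. The LIM1215 minus HT29 differences in log2 ratio were 0.89 for LAMP2, 0.61 for ATG5, 0.40 for MAP1LC3B, 0.33 for LAMP1, 0.32 for GLB1, 0.32 for ATP6AP1, 0.24 for ATP6V1B2 and 0.11 for CTSL. They were −0.37 for GUSB, −0.26 for ULK1, −0.23 for CTSB and −0.040 for UVRAG. For LAMP2 and ATG5 the HT29 si2 library was the lowest of the 4, and the LIM1215 ratios were 0.03 and 0.09. The counting interval excluded 100% of control on opposite sides in the lines for CTSB, GLB1 and GUSB only among these 12. The median of the autophagy factors also had opposite signs and differed by 0.018. Of the wider genes named, ULK2 had opposite signs, with a difference of 1.27.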

How the results depend on the processing

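Of 196 values for groups and counts, 184 stayed within a set tolerance under the alternatives, which does not mean unchanged. A count could change by up to 1.5-fold. A median, or a difference of medians, could move within the counting range of its group, also where its sign changed. A pseudocount of 0.1 put 1 member, GABARAPL1, above 1.5-fold in HT29. Rescaling to a common sum and upper quartile scaling each gave 2 members lower by 2-fold in the LIM1215 than in the HT29 control. Each also gave 3 members lower by 1.5-fold in HT29, and the membrane proteins then had HT29 medians of −0.068 and −0.058. The mean of the membrane group in LIM1215 was 0.16. In limma, 1 member lower (WIPI1) passed with a mean FPKM of at least 5 (adjusted p 0.0366), and with protein-coding genes only 1 higher (GAA, 0.0358) and 1 lower (WIPI1, 0.0165) did. The cause was not tested. At an unadjusted p there were 5 members after rescaling to a common sum, 4 without the eBayes trend and 0 with no replicate block. Over all genes limma called 288, and 50 with a pseudocount of 0.1, 0 with no filter on low values, 802 at a mean of at least 5 FPKM, 49 after rescaling to a common sum, 39 with upper quartile scaling, 0 without the trend, 1231 in protein-coding genes and 0 with no replicate block. No limma call of a member, of CTSV, of RAB7A or of ATG12 held in every alternative. None could, since some settings called 0 genes. TMEM161A, the targeted gene, had an adjusted p of 0.00333 in the main limma fit. It had 0.443 with no filter on low values, 0.151 without the trend and 0.9999 with no replicate block. Without 1 line no residual degree of freedom is left, which gives the ratio of the other line and no test. Of 488 single ratios, 463 stayed within counting error and 10, of 5 genes, changed sign, each at most 0.02 in size before. Depth limits TFEB most, at an estimated 95.6 fragments in the lowest library.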

Other observations

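Some wider genes were listed at or near 0 in HT29 and present in LIM1215. GALC, the galactocerebrosidase, was listed at 0 in both HT29 libraries and at 25.6 and 31.5 FPKM in the LIM1215 control and si2 libraries. MAP1LC3A, an LC3 relative, was at 0.0342 and 0.0338 FPKM in HT29 and at 5.03 and 5.76 in LIM1215. MITF, of the same transcription factor family as TFEB, was at 0.597 and 1.30 FPKM in HT29 and at 0.901 and 1.32 in LIM1215. TFEC, the remaining member of that family, was listed at 0 in 3 libraries and at 0.0228 FPKM in HT29 si2.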
